A study of Mus musculus with 9 samples.

Results

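Genes that encode chemokines, interleukins, colony-stimulating factors, TNF superfamily ligands, TGF-beta, a few other secreted factors and the checkpoint ligands Cd274, Pvr, Nectin2 and Lgals9 were followed across untreated, lefamulin-treated and tiamulin-treated hepatoma cells. They were chosen by gene symbol and by the protein-coding label in the deposited gene table, without use of any measured value, and 104 of the 56748 genes in that table met the rule. The symbols Il7r, Il9r, Il21r and Il23r also met it, although these genes encode receptor chains and not ligands. All 9 libraries came from bulk total RNA of Hepa1-6, a single mouse hepatoma line kept in DMEM with fetal bovine serum and penicillin-streptomycin, so every group, the control included, carried those antibiotics. In 3 libraries the cells were given 37 µg/mL lefamulin for 2 days, in 3 they were given 37 µg/mL tiamulin for 2 days, and 3 were controls, untreated by the sample labels and given vehicle by the study's methods. Lefamulin and tiamulin are pleuromutilins, antibiotics that share a tricyclic core and differ in the side chain attached to it, the former used in people and the latter in animals. No label says whether the 3 libraries of a group came from separate cultures, so p-values measure the spread between these libraries, which may be technical.

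Chemokines are small secreted proteins that draw leukocytes along a concentration gradient, and which leukocytes come depends on the receptor: CXCR2 on neutrophils, CXCR3 and CXCR6 on T cells, CCR2 on monocytes. Interleukins, colony-stimulating factors and TNF superfamily ligands act at short range on leukocytes and on the producing cell itself, and many of their genes are switched on through NF-kB, AP-1 or interferon-responsive elements. Checkpoint ligands sit on, or are released from, tumor cells and bind receptors such as PD-1, TIGIT and TIM-3 that restrain T cells and natural killer cells.

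The libraries held 15568887 to 18008105 counts each, and the 104 genes took 0.1983% to 0.2077% of them. Tiamulin library 2 stood apart: between it and the other tiamulin libraries the chi-square of the counts, divided by its degrees of freedom, was 18.1 and 20.7, against 2.88 to 7.57 for every other pair within a group, and its deviations from the group mean rose with GC content (Spearman's rho across 9584 genes 0.71, against -0.56 and -0.599 in tiamulin libraries 1 and 3, 0.523 and -0.512 in control libraries 1 and 2, and -0.159 to 0.195 in the others). Of 10 hepatocyte markers 8 were expressed highly enough to be tested, with summed levels of 4022 to 4302 CPM (counts scaled to library size) in control, 3903 to 4086 in lefamulin and 3837 to 4466 in tiamulin libraries, while Ttr and Apoa1, which mature hepatocytes express strongly, had at most 2 and 6 counts in any library. Of 10 leukocyte markers, Cd3e, Adgre1, Tyrobp and Cd52 were at 0 in all 9 libraries, and the summed level of the list was 11.55 to 11.62 CPM in control, 12.81 to 19.1 in lefamulin and 16.98 to 22.12 in tiamulin libraries. The 6 endothelial markers summed to 2.33 to 2.85, 6.45 to 7.23 and 4.89 to 6.81 CPM, with Emcn at 0 throughout, and the 6 fibroblast markers to 1479 to 1565, 1128 to 1182 and 1034 to 1125 CPM, almost all of it Dcn. By the test described below, 1 of the 8 tested hepatocyte markers rose and 2 fell under lefamulin (7.09% and 6% of all tested genes). Under tiamulin 1 rose and 3 fell (9.08% and 7.34% of all tested genes). Between the drugs 2 were higher and 3 lower under tiamulin (2.85% and 2.05%), changes that the sums do not show. The part of these marker levels in the results below was not tested. In bulk RNA, fewer cells making a transcript and less transcript per cell cannot be told apart.

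Of the 104 genes, 41 had enough counts to be tested among 14510 tested genes, and 63 did not. On the deposited FPKM scale, which divides counts by gene length and library size, 17 of the 41 averaged over 10, 15 lay between 1 and 10, and 9 lay below 1. Spp1, which encodes the secreted matrix protein osteopontin, was the highest at 306.6 ± 7.71 FPKM (SD, n = 3) in control libraries and took 21.5% of all counts on the 104 genes. Mif, the macrophage migration inhibitory factor, followed at 224.5 ± 13.1 FPKM and Ccl2, the main monocyte attractant acting through CCR2, at 98.7 ± 5.75 FPKM. Cxcl5, Cxcl3, Lgals9, Cxcl16, Vegfa, Pvr, Tgfb1 and Csf1 came next, between 20.8 and 67.0 FPKM in control. The cells thus carried transcripts for neutrophil and monocyte attractants, a macrophage growth factor and all 4 checkpoint ligands before any drug was given.

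**Figure D1:**
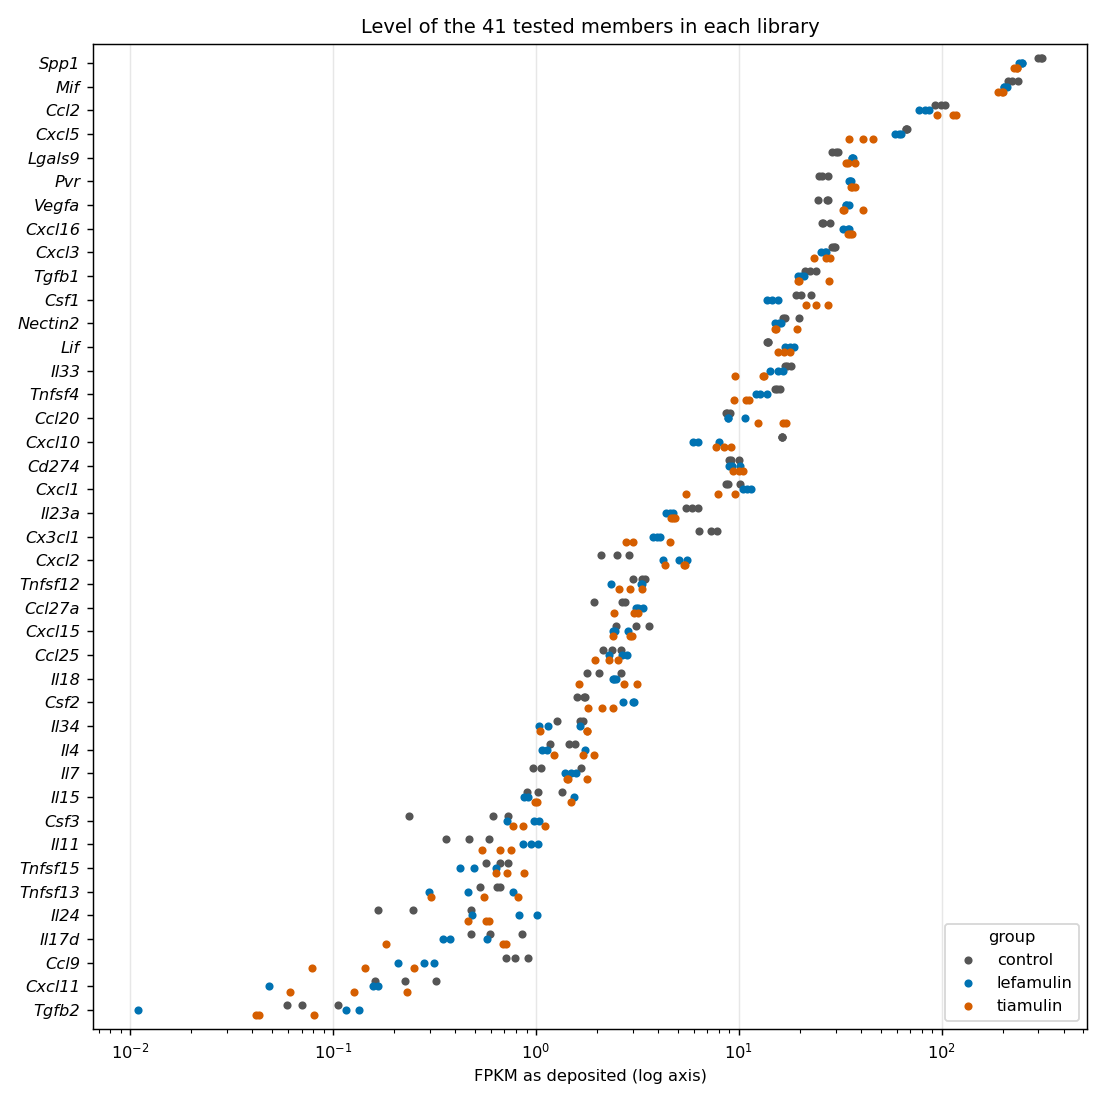
FPKM as deposited, on a log axis, of the 41 tested genes in each of the 9 libraries, ordered by mean level, with 1 point per library coloured by group. Levels span from Spp1 at over 200 FPKM in every library down to Tgfb2 and Cxcl11 at under 0.5 FPKM.

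Among the 63 genes that were not tested, 24 had no count in any library, which allows at most 3 counts in 150629150, or 0.0199 CPM. They include the T cell cytokines Il2, Il9, Il17a and Il22, both subunits of IL-12 (Il12a and Il12b), which dendritic cells and macrophages make, the chemokines Ccl3 and Ccl4 of activated macrophages, and Cxcl13, the B cell attractant. A further 23 genes had 1 to 9 counts over all 9 libraries. Il6 had 0, 2 and 1 counts in control, 0, 0 and 0 in lefamulin and 2, 0 and 2 in tiamulin libraries, Cxcl12 had 2 counts in control library 1 and 0 elsewhere, and the interferon-inducible Cxcl9 had 1 count in all. The remaining 16 untested genes had 10 or more counts in total but never more than 17 in a library. Tnfsf10, which encodes the death ligand TRAIL, had 8, 10 and 6 counts in control, 17, 4 and 10 in lefamulin and 4, 1 and 2 in tiamulin libraries. Ccl7, a monocyte attractant, had 5, 6 and 8, then 3, 5 and 2, then 11, 2 and 8. Il17f had 1, 5 and 3, then 7, 5 and 4, then 14, 0 and 5, and Ccl5, the T cell attractant RANTES, had 1, 5 and 4, then 3, 1 and 9, then 2, 10 and 7. The Tnfsf10 counts of the tiamulin libraries lay below those of control and overlapped those of lefamulin, the groups of the other 3 genes overlapped, and none of the 4 was expressed highly enough to be tested. Il1a, Cxcl17, Il27, Ccl28, Tnfsf13b, Il7r, Ccl17, Tnfsf18, Ccl8, Il9r, Il19 and Tnfsf9 made up the rest, with totals from 40 down to 10 counts.

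Each drug was then compared with control, to ask which of these transcripts moved and in which direction, with edgeR's quasi-likelihood test and Benjamini-Hochberg adjustment over all 14510 tested genes. Under lefamulin 15 of the 41 tested genes passed an adjusted p of 0.05, or 36.6%, against a background of 13.1% of all tested genes. Of these, 8 rose (background 7.09%) and 7 fell (background 6%). Under tiamulin 15 of 41 also passed, again 36.6%, against a background of 16.4%, with 7 raised (background 9.08%) and 8 lowered (background 7.34%). The share that passed was above the background under each drug. Cxcl2, Cxcl16, Lgals9, Lif, Pvr and Vegfa rose under both drugs, Ccl9, Cx3cl1, Cxcl10 and Spp1 fell under both, and no gene passed in opposite directions in this fit. With GC and length offsets Csf1 and Ccl2 did, lower under lefamulin and higher under tiamulin (adjusted p = 0.0152 and 0.00572 for the increases). Because both comparisons use the same 3 control libraries, the overlap of their calls is not independent. Most changes were small: with an absolute log2 fold change above 1 required as well, 2 genes remained under lefamulin (Ccl9 and Cxcl10, background 1.51%) and 3 under tiamulin (Ccl9, Cx3cl1 and Cxcl2, background 1.78%). The median log2 fold change of the 41 genes was -0.12 under lefamulin and 0.00 under tiamulin, against 0.00 for all tested genes in each comparison. Without tiamulin library 2 the number passing was 20 under lefamulin and 18 under tiamulin, while over all tested genes it went from 1900 to 3708 and from 2383 to 3433.

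**Figure D2:**
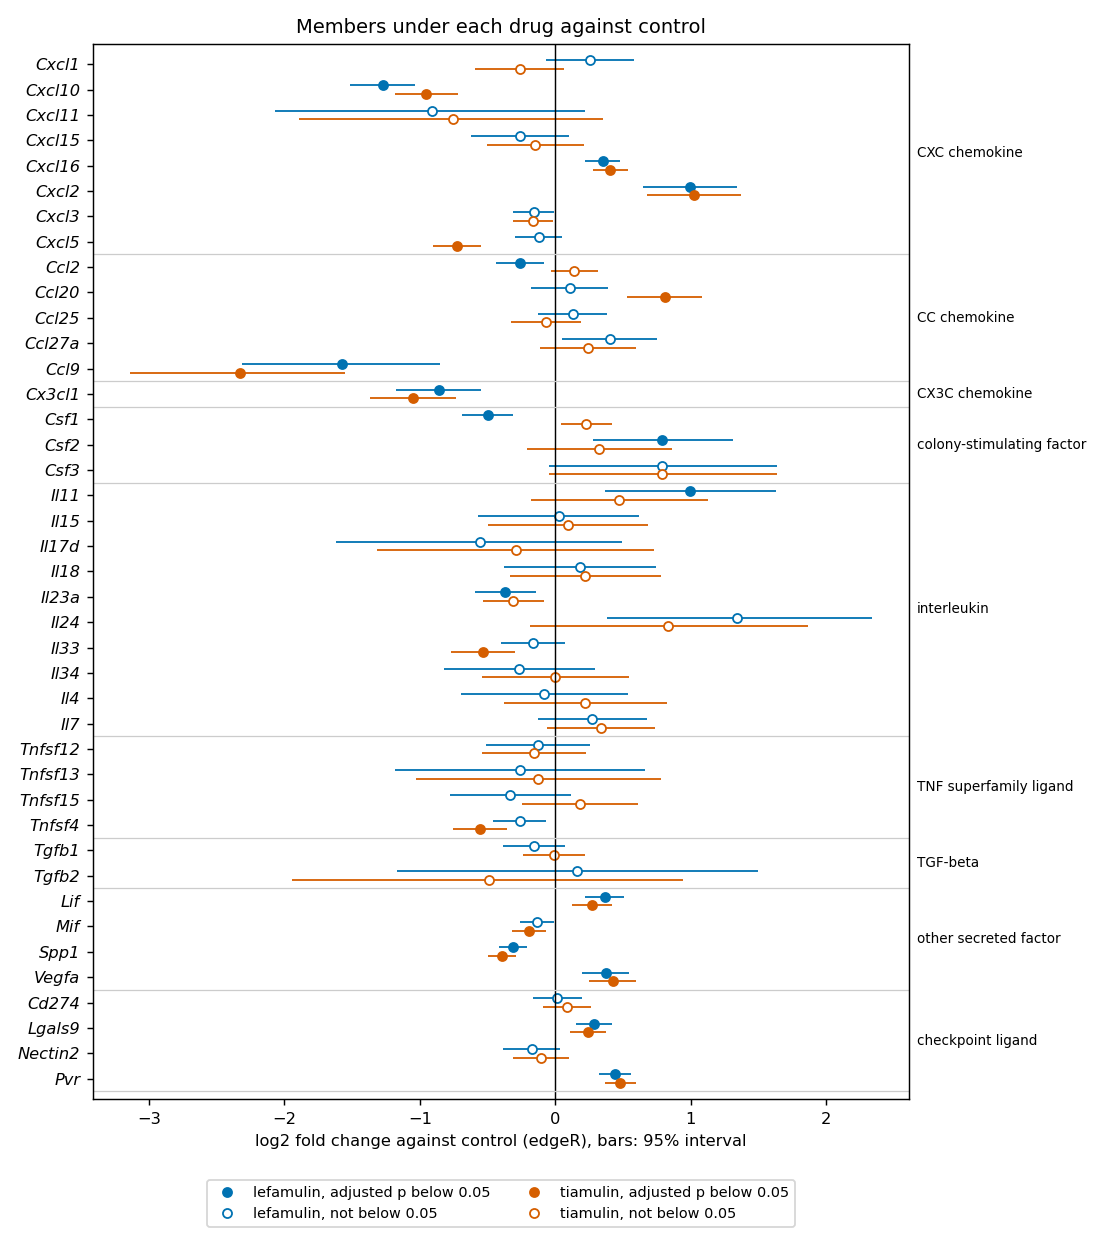
Log2 fold change against control of the 41 tested genes, grouped by role, for lefamulin (blue) and tiamulin (orange), with 95% intervals as bars and filled points where the adjusted p was below 0.05. Ccl9 lies farthest left, at -1.57 and -2.33, and Cxcl2 is raised about equally by both drugs, at 0.99 and 1.02.

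Among the 8 tested CXC chemokines, Cxcl10 had the largest change under lefamulin and Cxcl2 under tiamulin. Cxcl10 encodes an interferon-inducible attractant of CXCR3-bearing T cells, and its counts were 643, 632 and 661 in control, 285, 223 and 232 in lefamulin and 342, 277 and 325 in tiamulin libraries. No treated library came near the 3 controls. Cxcl10 fell to 41.3% of control under lefamulin (log2 fold change -1.27 ± 0.11 (SE), adjusted p = 4.92e-06) and to 51.7% under tiamulin (-0.95 ± 0.11, adjusted p = 3.94e-05). Cxcl11, which lies beside it on chromosome 5 and binds the same receptor, was scarce, with 15, 21 and 11 counts in control, 10, 10 and 3 under lefamulin and 8, 14 and 4 under tiamulin. Estimates of -0.91 (95% interval -2.07 to 0.22) and -0.76 (-1.89 to 0.35) did not pass the test.

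Cxcl2, a CXCR2 ligand that recruits neutrophils, moved the other way. Its counts were 75, 90 and 107 in control, 166, 192 and 143 in lefamulin and 185, 143 and 193 in tiamulin libraries, with no overlap between control and either drug. Cxcl2 rose 1.99-fold under lefamulin (0.99 ± 0.16 on the log2 scale, adjusted p = 0.00104) and 2.03-fold under tiamulin (1.02 ± 0.16, adjusted p = 0.000591). The other neutrophil attractants next to it did not follow. Cxcl5, Cxcl3, Cxcl15, Cxcl1 and Cxcl2 lie within 147 kb of chromosome 5, all on the plus strand, by the deposited positions. Cxcl5 had 2162, 2172 and 2234 counts in control, 1818, 1968 and 1800 under lefamulin and 1412, 1036 and 1307 under tiamulin. It fell to 60.5% of control under tiamulin (-0.72 ± 0.08, adjusted p = 3.99e-05), while under lefamulin it was at 91.8% (-0.12 ± 0.08, adjusted p = 0.362), a decrease that passed with GC and length offsets (adjusted p = 0.00384, and 0.00474 with the replicate block added). Cxcl3 was at 89.5% and 89.2% of control (adjusted p = 0.153 and 0.126), and the lefamulin difference passed without tiamulin library 2 (adjusted p = 0.0164). With GC and length offsets the Cxcl3 decrease passed under lefamulin (adjusted p = 0.00157) and tiamulin (adjusted p = 0.0182). Cxcl1 had 332, 280 and 300 counts in control, 326, 329 and 355 under lefamulin and 246, 165 and 308 under tiamulin, at log2 differences of 0.26 and -0.26 that did not pass (adjusted p = 0.297 and 0.279), although the tiamulin difference passed without tiamulin library 3 (adjusted p = 0.0487). Cxcl15 did not pass either (-0.26 and -0.15). Under tiamulin Cxcl2 of this cluster thus rose while Cxcl5 fell.

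Cxcl16 encodes a transmembrane chemokine that is shed to attract CXCR6-bearing T cells and that also scavenges oxidized lipoproteins. Its counts of 1375, 1474 and 1395 in control, 1645, 1755 and 1615 under lefamulin and 1737, 1743 and 1825 under tiamulin separated control from both drugs, whose own ranges overlapped. Cxcl16 rose 1.27-fold (0.35 ± 0.06, adjusted p = 0.00156) and 1.32-fold (0.41 ± 0.06, adjusted p = 0.000376). Zmynd15 overlaps it on the opposite strand with 800 counts in all against 14564 for Cxcl16, and whether counting used strand is not given in the sources used here.

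**Figure D3:**
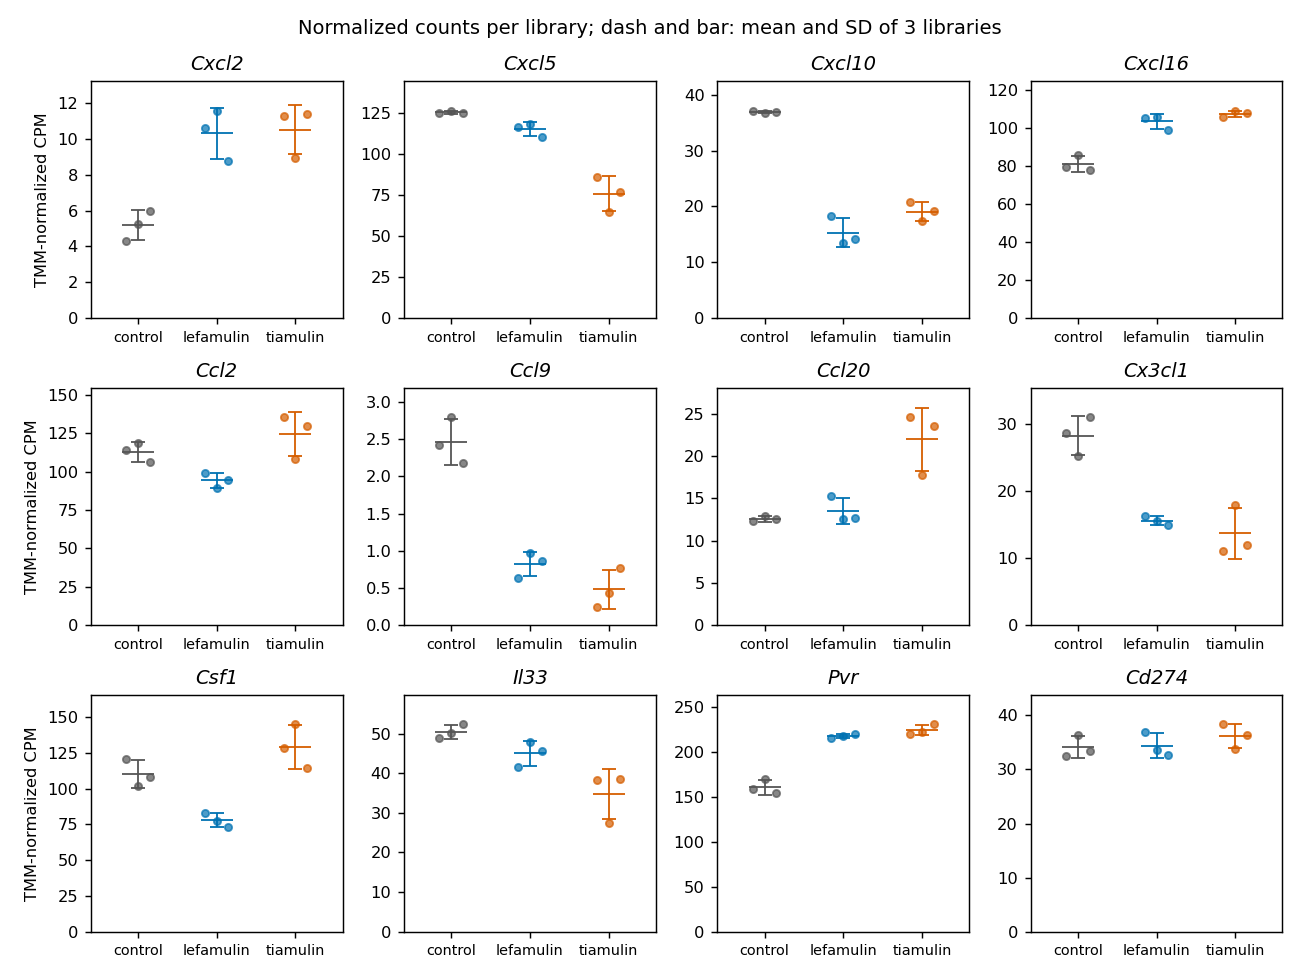
TMM-normalized CPM of 12 genes in each library, with points for the 3 libraries of a group and a dash and bar for their mean and SD, each axis starting at 0. Cxcl10, Ccl9 and Cx3cl1 lie lower in both drugs than in control, Cxcl2, Cxcl16 and Pvr lie higher in both, Cxcl5, Ccl20 and Csf1 separate the drugs from each other, and Cd274 lies between 32.5 and 38.3 CPM in all 9 libraries.

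Of 24 CC chemokines 5 were tested. Ccl9, a mouse attractant of monocytes and dendritic cells, had 42, 48 and 39 counts in control, 10, 16 and 14 under lefamulin and 4, 7 and 13 under tiamulin. It fell to 33.6% of control under lefamulin (-1.57 ± 0.34, adjusted p = 0.00716) and to 19.9% under tiamulin (-2.33 ± 0.37, adjusted p = 0.000575), the steepest decrease of the 41 genes at a level of only 0.81 ± 0.10 FPKM in control. The single CX3C chemokine, Cx3cl1 or fractalkine, which is membrane-anchored and binds CX3CR1 on monocytes and cytotoxic lymphocytes, had 497, 433 and 555 counts in control, 254, 259 and 243 under lefamulin and 182, 288 and 203 under tiamulin. Again no treated library reached the controls. Cx3cl1 fell to 55% of control (-0.86 ± 0.15, adjusted p = 0.00143) and to 48.2% (-1.05 ± 0.15, adjusted p = 0.000243).

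The abundant Ccl2 behaved differently under the drugs. It had 1975, 2040 and 1897 counts in control, 1551, 1477 and 1542 under lefamulin and 2223, 1729 and 2204 under tiamulin. Ccl2 fell to 83.4% of control under lefamulin (-0.26 ± 0.08, adjusted p = 0.0498), a call at the threshold that was lost when any control or lefamulin library was left out (adjusted p 0.070 to 0.197), with the replicate block (0.0761), with at least 10 counts in every library (0.0513) and with limma on FPKM (0.0822 and 0.0809). Under tiamulin it was 1.10-fold of control (0.14 ± 0.08, adjusted p = 0.276), with groups that overlapped. The increase passed without tiamulin library 2 (adjusted p = 0.00402) and with GC and length offsets (0.00572). Ccl20, which attracts CCR6-bearing lymphocytes and dendritic cells, had 213, 222 and 224 counts in control, 240, 209 and 207 under lefamulin and 404, 284 and 401 under tiamulin. It rose 1.75-fold under tiamulin (0.81 ± 0.13, adjusted p = 0.000607) and was 1.08-fold of control under lefamulin (0.11 ± 0.13, adjusted p = 0.662). Ccl25 and Ccl27a did not pass under either drug, and both overlap a gene on the opposite strand with more counts than their own, Elavl1 and Il11ra1, so that part of their counts may belong to it.

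The promoters of the genes that passed under both drugs are shown for the 6 with the smallest adjusted p among those with a RefSeq promoter window, to set the lowered genes beside the raised ones. Each runs over 200 bases up to the annotated transcription start, read 5′ to 3′ in the direction of transcription, from RefSeq on GRCm38.p6, and capitals mark matches on either strand to the NF-kB motif, which is GGGA, any 4 bases and CC. Where a gene has more than 1 window, the outermost start was taken. Cxcl10 is at chr5:92348890-92349089 on the minus strand, Spp1 at chr5:104434911-104435110 on the plus strand, Cx3cl1 at chr8:94771980-94772179 on the plus strand, Ccl9 at chr11:83578637-83578836 on the minus strand, Cxcl2 at chr5:90903699-90903898 on the plus strand and Vegfa at chr17:46032378-46032577 on the minus strand.
Cxcl10: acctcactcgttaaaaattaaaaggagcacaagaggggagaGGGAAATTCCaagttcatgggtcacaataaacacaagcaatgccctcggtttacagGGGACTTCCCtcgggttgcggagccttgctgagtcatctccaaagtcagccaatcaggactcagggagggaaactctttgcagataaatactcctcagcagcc
Spp1: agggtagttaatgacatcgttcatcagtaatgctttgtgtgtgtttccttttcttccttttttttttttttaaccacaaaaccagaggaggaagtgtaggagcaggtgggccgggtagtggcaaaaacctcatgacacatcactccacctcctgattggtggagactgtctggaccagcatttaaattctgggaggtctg
Cx3cl1: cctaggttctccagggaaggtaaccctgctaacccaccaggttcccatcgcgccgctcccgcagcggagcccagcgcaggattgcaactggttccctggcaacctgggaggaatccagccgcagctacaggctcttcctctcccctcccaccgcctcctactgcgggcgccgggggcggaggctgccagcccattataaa
Ccl9: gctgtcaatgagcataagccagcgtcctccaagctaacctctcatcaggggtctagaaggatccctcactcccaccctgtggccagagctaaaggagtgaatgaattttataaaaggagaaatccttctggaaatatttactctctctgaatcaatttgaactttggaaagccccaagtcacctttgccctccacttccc
Cxcl2: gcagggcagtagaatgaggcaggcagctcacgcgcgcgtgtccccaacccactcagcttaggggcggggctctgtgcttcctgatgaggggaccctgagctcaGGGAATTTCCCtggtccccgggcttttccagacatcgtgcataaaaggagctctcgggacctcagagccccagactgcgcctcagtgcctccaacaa
Vegfa: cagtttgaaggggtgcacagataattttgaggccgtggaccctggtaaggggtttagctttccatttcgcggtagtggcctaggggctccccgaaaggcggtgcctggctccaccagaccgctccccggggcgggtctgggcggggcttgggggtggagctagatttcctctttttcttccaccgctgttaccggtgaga

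The lowered Cxcl10 held the NF-kB motif at 2 places, beginning 159 and 103 bases before the start, and the raised Cxcl2 held it at 1 place, where matches on both strands overlap from 97 and 96 bases before the start. The stretches printed for Spp1, Cx3cl1, Ccl9 and Vegfa contain no match to those letters. The AP-1 motif TGANTCA was present in those of Cxcl10 and Ccl9, and the interferon-stimulated response element core, which is TTTC, any 2 bases and TTTC, in those of Spp1 and Vegfa. Across full windows of 300 bases, the NF-kB motif was found in 20.7% of all 32851 windows, where a gene can have more than 1 window. Counted by gene, it was in 26 of the 74 of the 104 that have a window, in 12 of the 28 tested and in 7 of the 14 that passed under either drug (Ccl20, Csf1, Csf2, Cxcl10, Cxcl2, Lgals9 and Lif). The AP-1 motif was in 7.81% of all windows and in 4 of the 14, and the interferon-stimulated core was in 3.44% and in 4 of the 14 (Cxcl10, Lgals9, Spp1 and Vegfa). The hypoxia response core ACGTG was in 19.6% of windows and in 2 of the 14 (Mif and Vegfa), the cyclic AMP element TGACGTCA in 1.79% and in 1 (Mif), and the E-box CACGTG, which contains the hypoxia core, in 7.15% and in none. Genes with the NF-kB motif were found among those raised and those lowered.

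All 3 colony-stimulating factors were tested. Csf1, the growth and survival factor of macrophages, had 2094, 1750 and 1934 counts in control, 1296, 1290 and 1199 under lefamulin and 2106, 2320 and 1941 under tiamulin. The lefamulin libraries lay below all others. Csf1 fell to 70.7% of control under lefamulin (-0.50 ± 0.09, adjusted p = 0.0019), whereas under tiamulin it was 1.17-fold of control (0.23 ± 0.09, adjusted p = 0.093), a difference that passed without tiamulin library 3 (adjusted p = 0.0256). The tiamulin difference also passed with GC and length offsets (0.0152) and with no filter on low counts (0.0195). Csf2, which encodes GM-CSF, was scarce, with 24, 24 and 23 counts in control, 34, 40 and 40 under lefamulin and 24, 27 and 33 under tiamulin. It rose 1.73-fold under lefamulin (0.79 ± 0.24, adjusted p = 0.0443), a call lost without any 1 of the control or lefamulin libraries or tiamulin library 1 (adjusted p 0.051 to 0.133). The call was also lost with GC and length offsets (0.0668), the replicate block (0.0792), no filter (0.1255) and DESeq2 (0.1058). Csf3, which encodes the granulocyte factor G-CSF, had 6 to 18 counts in control and 16 to 25 in treated libraries and did not pass.

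Of 37 interleukin genes 10 were tested and 3 passed in a drug comparison. Under lefamulin 1 rose and 1 fell (background 7.09% and 6%), and under tiamulin 1 fell (background 7.34%). Il33, a nuclear alarmin released from damaged epithelium that acts on ST2-bearing lymphocytes, had 845, 860 and 937 counts in control, 651, 794 and 742 under lefamulin and 630, 440 and 656 under tiamulin. Il33 fell to 69.1% of control under tiamulin (-0.53 ± 0.11, adjusted p = 0.00425), and under lefamulin it was at 89.3% (-0.16 ± 0.11, adjusted p = 0.366), a decrease that passed with GC and length offsets (adjusted p = 0.0211, and 0.0328 with the replicate block added). Il23a, the p19 subunit of IL-23, had 216, 243 and 239 counts in control, 167, 165 and 168 under lefamulin and 173, 171 and 187 under tiamulin. It fell to 77.3% of control under lefamulin (-0.37 ± 0.11, adjusted p = 0.0322) and was at 80.6% under tiamulin (-0.31 ± 0.10, adjusted p = 0.0571), so the drugs stood on either side of the threshold at nearly equal size. The tiamulin decrease passed in 5 of the 19 alternatives, with adjusted p from 0.0174 with limma to 0.0478 with at least 10 counts in every library. The lefamulin call was lost without control library 2 or 3 or any lefamulin library (adjusted p 0.067 to 0.119). It was also lost with DESeq2 (0.0540), the replicate block (0.0705) and no filter (0.0822). The partner subunit Il12b was at 0 in all 9 libraries. Il11, which signals through gp130, had 17, 13 and 22 counts in control, 31, 30 and 35 under lefamulin and 23, 18 and 27 under tiamulin. It rose 1.99-fold under lefamulin (0.99 ± 0.29, adjusted p = 0.0387), a call lost without any control or lefamulin library (adjusted p 0.051 to 0.116). This call was also lost with the replicate block (0.0501), no filter (0.0643) and DESeq2 (0.0702).

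The other 7 interleukins did not pass under either drug. Il24 had the largest estimate, 6, 4 and 12 counts in control against 22, 19 and 11 under lefamulin and 13, 13 and 11 under tiamulin (1.34 ± 0.46 and 0.83 ± 0.48, adjusted p = 0.0651 and 0.265). The lefamulin difference passed without tiamulin library 2 (adjusted p = 0.0441). Il15, which sustains natural killer and memory T cells, had 37 to 53 counts in control, 31 to 58 under lefamulin and 36 to 56 under tiamulin. Il18 had 32 to 47, 39 to 42 and 27 to 54, and Il34, the second ligand of the Csf1 receptor, had 45 to 58, 32 to 54 and 34 to 60. For these 3 genes the 95% intervals reached from -0.57 to 0.62, from -0.38 to 0.74 and from -0.82 to 0.29 on the log2 scale under lefamulin, and changes within those intervals are not excluded. Il7 passed under both drugs only without control library 2, which had 163 counts against 95 and 108 in the other controls (adjusted p = 0.0492 and 0.0259).

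Among TNF superfamily ligands, Tnfsf4, or OX40 ligand, which costimulates T cells, was the most highly expressed of the 4 tested. It had 497, 480 and 528 counts in control, 353, 393 and 417 under lefamulin and 333, 279 and 355 under tiamulin. Tnfsf4 fell to 68.1% of control under tiamulin (-0.55 ± 0.09, adjusted p = 0.000869), and under lefamulin it was at 83.4% (-0.26 ± 0.09, adjusted p = 0.0739) with no overlap with control, a difference that passed without tiamulin library 2 (adjusted p = 0.0174). Tnfsf12, Tnfsf13 and Tnfsf15 did not pass, and both Tnfsf12 and Tnfsf13 overlap the read-through gene Tnfsfm13 on the same strand, so their counts are uncertain. Tgfb1 had 2112, 1850 and 2031 counts in control, 1661, 1652 and 1669 under lefamulin and 1664, 2238 and 1686 under tiamulin. It did not pass (-0.16 ± 0.11 and -0.01 ± 0.11, adjusted p = 0.383 and 0.959), but tiamulin library 2 alone was high, and without it the decrease passed under lefamulin (adjusted p = 0.0257) and tiamulin (-0.19, adjusted p = 0.0163). Tgfb2 had 1 to 13 counts in a library.

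Spp1 and Vegfa, both abundant, moved in opposite directions. Spp1 had 8549, 8772 and 9298 counts in control, 6465, 6645 and 6718 under lefamulin and 6240, 6207 and 6647 under tiamulin, and fell to 80.4% (-0.31 ± 0.05, adjusted p = 0.000587) and 76.1% of control (-0.39 ± 0.05, adjusted p = 6.50e-05). Vegfa, the main angiogenic factor, had 2025, 1820 and 2121 counts in control, 2269, 2415 and 2470 under lefamulin and 2308, 2805 and 2416 under tiamulin. All treated libraries were above all controls, and Vegfa rose 1.29-fold (0.37 ± 0.08, adjusted p = 0.0075) and 1.34-fold (0.42 ± 0.08, adjusted p = 0.00235). Lif, a gp130 cytokine, had 1046, 1043 and 1091 counts in control, 1280, 1300 and 1210 under lefamulin and 1204, 1249 and 1157 under tiamulin. Lif rose 1.29-fold (0.36 ± 0.07, adjusted p = 0.00277) and 1.21-fold (0.27 ± 0.07, adjusted p = 0.0141), the latter lost without control library 3 (adjusted p = 0.057). Mif had 2751, 3064 and 2991 counts in control, 2456, 2510 and 2479 under lefamulin and 2461, 2260 and 2554 under tiamulin. It fell to 87.5% of control under tiamulin (-0.19 ± 0.06, adjusted p = 0.0377), a call lost without control library 2 or 3, any lefamulin library, or tiamulin library 1 or 3 (adjusted p 0.053 to 0.171), and also with GC and length offsets (0.274), the replicate block (0.0924), the 2 groups alone (0.0975) and no filter (0.0728). Mif was at 91.2% under lefamulin (-0.13 ± 0.06, adjusted p = 0.16), which passed without tiamulin library 2 (adjusted p = 0.0343).

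Of the 4 checkpoint ligands, 2 rose under lefamulin (background 7.09%) and 2 under tiamulin (background 9.08%). The same 2 rose under both drugs, which share their controls, and 2 passed under neither. Pvr, or CD155, the ligand of TIGIT, CD96 and CD226 on T and natural killer cells, was the second most counted of the 104 genes, with 2746, 2914 and 2753 counts in control, 3372, 3614 and 3588 under lefamulin and 3615, 3551 and 3919 under tiamulin. Pvr rose 1.36-fold (0.44 ± 0.05, adjusted p = 0.000115) and 1.40-fold (0.48 ± 0.05, adjusted p = 3.86e-05). Nectin2, which binds TIGIT and PVRIG and lies within the same 205 kb of chromosome 7 as Pvr by the deposited positions, had 1210, 991 and 1067 counts in control, 893, 922 and 868 under lefamulin and 883, 1077 and 897 under tiamulin. It did not pass (-0.17 ± 0.10 and -0.11 ± 0.10, adjusted p = 0.272 and 0.511), but the decrease under tiamulin passed without tiamulin library 2 (adjusted p = 0.0274) and with GC and length offsets, without and with the replicate block (adjusted p = 0.0306 and 0.0413).

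Lgals9, which encodes galectin-9, a ligand of TIM-3, had 1141, 1106 and 1112 counts in control, 1222, 1292 and 1279 under lefamulin and 1193, 1281 and 1263 under tiamulin. Lgals9 rose 1.22-fold (0.28 ± 0.06, adjusted p = 0.00789) and 1.18-fold (0.24 ± 0.06, adjusted p = 0.0168). Without control library 3 both calls were lost (adjusted p = 0.0554 and 0.091). The tiamulin call was also lost without control library 2 (adjusted p = 0.0535) and with the 2 groups compared alone (0.0561). Cd274, which encodes PD-L1, had 563, 625 and 597 counts in control, 578, 558 and 533 under lefamulin and 630, 541 and 618 under tiamulin. The groups overlapped, at 0.01 (95% interval -0.17 to 0.19) under lefamulin and 0.09 (-0.09 to 0.27) under tiamulin. The non-coding gene Gm36043 overlaps Cd274 on the opposite strand with 792 counts in all against 5243.

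Tiamulin was then compared directly with lefamulin at the same concentration and time. Of the 41 genes 4 passed, or 9.76%, against a background of 4.9%: 3 higher under tiamulin (background 2.85%) and 1 lower (background 2.05%), none of them with an absolute log2 difference above 1 (background 0.227%). Csf1 was 1.66-fold higher under tiamulin (0.73 ± 0.09, adjusted p = 0.000605), Ccl20 1.63-fold (0.70 ± 0.13, adjusted p = 0.00692) and Ccl2 1.32-fold (0.40 ± 0.08, adjusted p = 0.0138), while Cxcl5 was at 66.0% of its lefamulin level (-0.60 ± 0.08, adjusted p = 0.00126). For these 4 genes no library of one drug reached the range of the other. The same held for Spp1, Mif, Pvr, Il33, Tnfsf4, Cxcl1, Csf2 and Il11, which did not pass. Such separation therefore does not mark out the 4. Ccl20 and Ccl2 lost the call without lefamulin library 2 (adjusted p = 0.0514 and 0.086) or 3 (adjusted p = 0.0545 and 0.0713), and Ccl2 also without tiamulin library 1 (adjusted p = 0.0509). Of the genes called under only 1 drug, Csf2, Il11, Il23a, Il33, Mif and Tnfsf4 did not pass this test, with log2 differences of -0.46 (95% interval -0.97 to 0.04), -0.52 (-1.13 to 0.08), 0.06 (-0.17 to 0.29), -0.37 (-0.61 to -0.13), -0.06 (-0.19 to 0.07) and -0.29 (-0.49 to -0.09). For Il33 and Tnfsf4 the unadjusted intervals exclude 0 although the adjusted p was 0.072 and 0.0874, and Il33 passed without tiamulin library 3 (adjusted p = 0.0414), with DESeq2 (0.0312), with GC and length offsets (0.00968) and with no filter on low counts (0.00328). Cxcl1 was at -0.52 (95% interval -0.85 to -0.19, adjusted p = 0.0675) and passed in the same settings (adjusted p = 0.0136, 0.0298, 0.0197 and 0.0010). Without tiamulin library 2 the number passing was 6, while over all tested genes it went from 711 to 1309, with Cx3cl1 lower and Cxcl10 higher under tiamulin (adjusted p = 0.0176 and 0.0263).

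**Figure D4:**
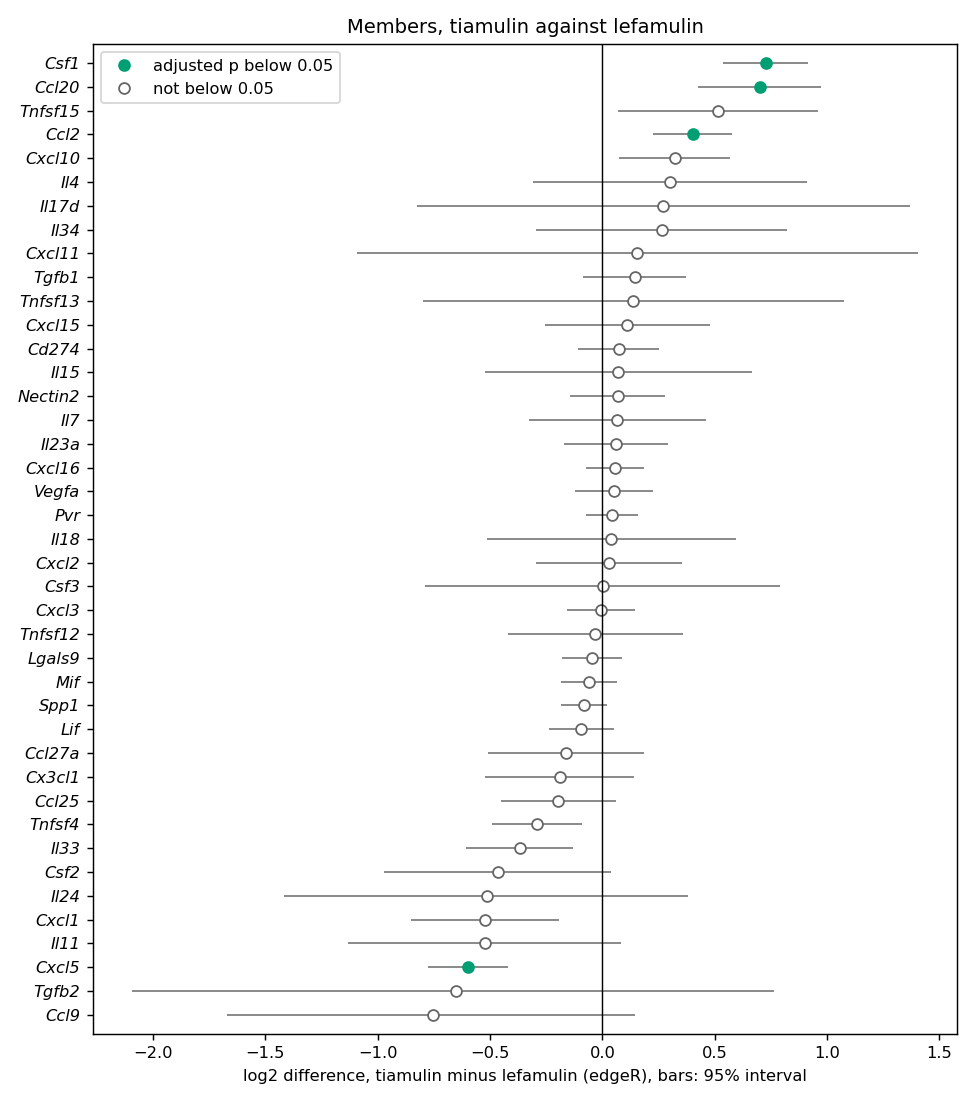
Log2 difference between tiamulin and lefamulin for the 41 tested genes, ordered by size, with 95% intervals as bars and filled points where the adjusted p was below 0.05. Csf1, Ccl20 and Ccl2 lie to the right and Cxcl5 to the left, while wide bars mark scarce genes such as Tgfb2, Cxcl11 and Il17d.

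Genes linked to these ligands were counted in lists drawn up by function. Of 87 receptors of the ligands, 45 were tested. Under lefamulin 1 rose and 13 fell (background 7.09% and 6%), and under tiamulin 4 rose and 13 fell (background 9.08% and 7.34%). The number called ranged from 7 to 24 and from 9 to 18 over the alternative settings. The same backgrounds apply to the lists that follow, and 2.85% higher and 2.05% lower to counts between the drugs. Il2rb, the beta chain shared by the IL-2 and IL-15 receptors, had 262, 246 and 267 counts in control, 104, 100 and 115 under lefamulin and 83, 81 and 65 under tiamulin (-1.17 and -1.67, adjusted p = 4.36e-05 and 1.81e-06). Csf1r, the receptor of Csf1 and Il34, had 41, 40 and 58, then 16, 17 and 18, then 26, 14 and 12 (-1.33 and -1.32, adjusted p = 0.0119 and 0.00949). Lifr, the LIF receptor, fell while its ligand rose (-0.76 and -0.94, adjusted p = 3.89e-06 and 5.29e-07), and the shared gp130 chain Il6st fell as well (-0.32 and -0.31, adjusted p = 0.00297 and 0.00279). Tnfrsf14, the HVEM receptor, fell under lefamulin (-0.95, adjusted p = 0.00676) and was at -0.00 under tiamulin (adjusted p = 0.994), and the drugs differed (0.94, adjusted p = 0.0176). Of 18 tested further checkpoint and costimulatory genes, 2 rose and 2 fell under lefamulin, and 2 rose and 3 fell under tiamulin. Besides ligands, this list holds the receptor gene Tnfrsf14 and the enzyme genes Nt5e and Ido2. Nt5e was 1 of the 2 that rose under each drug (0.33 and 0.33, adjusted p = 0.0324 and 0.0235). Fgl1, a LAG-3 ligand made by liver cells, fell (-0.72 and -1.13, adjusted p = 0.0145 and 0.000645), Lgals3, which encodes galectin-3, rose (0.38 and 0.52, adjusted p = 0.00336 and 0.000227), and the alarmin Hmgb1 fell under tiamulin (-0.52, adjusted p = 0.00376).

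Of 27 tested NF-kB feedback and target genes, 1 rose and 10 fell under lefamulin, and 4 rose and 5 fell under tiamulin. The inhibitor gene Nfkbia (-0.65 and -0.41, adjusted p = 0.00022 and 0.00438), the interferon-regulatory factor Irf1 (-0.69 and -0.46, adjusted p = 0.000174 and 0.00247) and the adaptor Traf1 (-0.60 and -0.79, adjusted p = 0.00602 and 0.000661) fell under both. Tnfaip3, which encodes the feedback inhibitor A20, had 1125, 1241 and 1138 counts in control, 1091, 1206 and 1089 under lefamulin and 2164, 2116 and 2008 under tiamulin. It rose under tiamulin (0.93, adjusted p = 1.05e-06), was at 0.06 under lefamulin (adjusted p = 0.647), and differed between the drugs (0.87, adjusted p = 1.41e-05). Between the drugs 5 genes of this list were higher and 1 lower under tiamulin (background 2.85% and 2.05%), a total that ranged from 2 to 12 over the alternatives.

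Of 21 tested targets of gp130 and STAT3, the route used by Lif and Il11, 1 rose and 7 fell under lefamulin, and 3 rose and 7 fell under tiamulin, totals that ranged from 1 to 10 and from 4 to 13 over the alternatives. Socs3, the feedback inhibitor of the pathway, fell (-0.72 and -0.45, adjusted p = 0.00328 and 0.0328), as did the acute-phase genes Hp (-1.39 and -1.18, adjusted p = 0.0213 and 0.0348, at 7 to 24 counts) and Hpx (-0.27 and -0.68, adjusted p = 0.0242 and 2.79e-05), while Orm2 rose under lefamulin (1.58, adjusted p = 0.0281, at 4 to 20 counts). Of 26 tested TGF-beta targets and latency proteins, 4 rose and 6 fell under lefamulin, 5 rose and 4 fell under tiamulin, and 7 were higher and 0 lower under tiamulin than under lefamulin (background 2.85% and 2.05%). Ccn1 and Ccn2, which are also targets of YAP, rose under both drugs and more under tiamulin (0.27 and 1.19 for Ccn1, 0.52 and 1.12 for Ccn2, direct differences 0.92 and 0.61, adjusted p = 6.74e-06 and 0.000146). Itgb6, an integrin chain that activates latent TGF-beta, rose under both (0.72 and 0.64, adjusted p = 0.000572 and 0.00111), and Tgif1 rose under tiamulin (0.45, adjusted p = 0.000144).

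Of 24 tested hypoxia and VEGF-linked genes, 3 rose and 9 fell under lefamulin, and 3 rose and 10 fell under tiamulin. Most of the called genes moved opposite to Vegfa, while the other tested genes of the list had no call. Angpt1, a vessel-stabilizing ligand, had 39, 41 and 35 counts in control, 11, 18 and 9 under lefamulin and 17, 9 and 13 under tiamulin (-1.48 and -1.47, adjusted p = 0.00884 and 0.00705). Ndrg1 rose (0.60 and 0.72, adjusted p = 5.38e-06 and 9.01e-07), the VEGF relative Pgf rose under lefamulin at 6 to 38 counts (1.38, adjusted p = 0.0428), and the hypoxia-inducible Bnip3 fell (-0.32 and -0.42, adjusted p = 0.0308 and 0.00525). Set against the median of all tested genes, which was within 0.01 of 0 in each comparison, the list medians under lefamulin and tiamulin were -0.12 and -0.08 for receptors, -0.01 and -0.08 for further checkpoint ligands, -0.18 and -0.11 for the NF-kB list, -0.15 and -0.13 for gp130 and STAT3 targets, -0.10 and 0.11 for TGF-beta targets, and -0.14 and -0.22 for the hypoxia list.

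**Figure D5:**
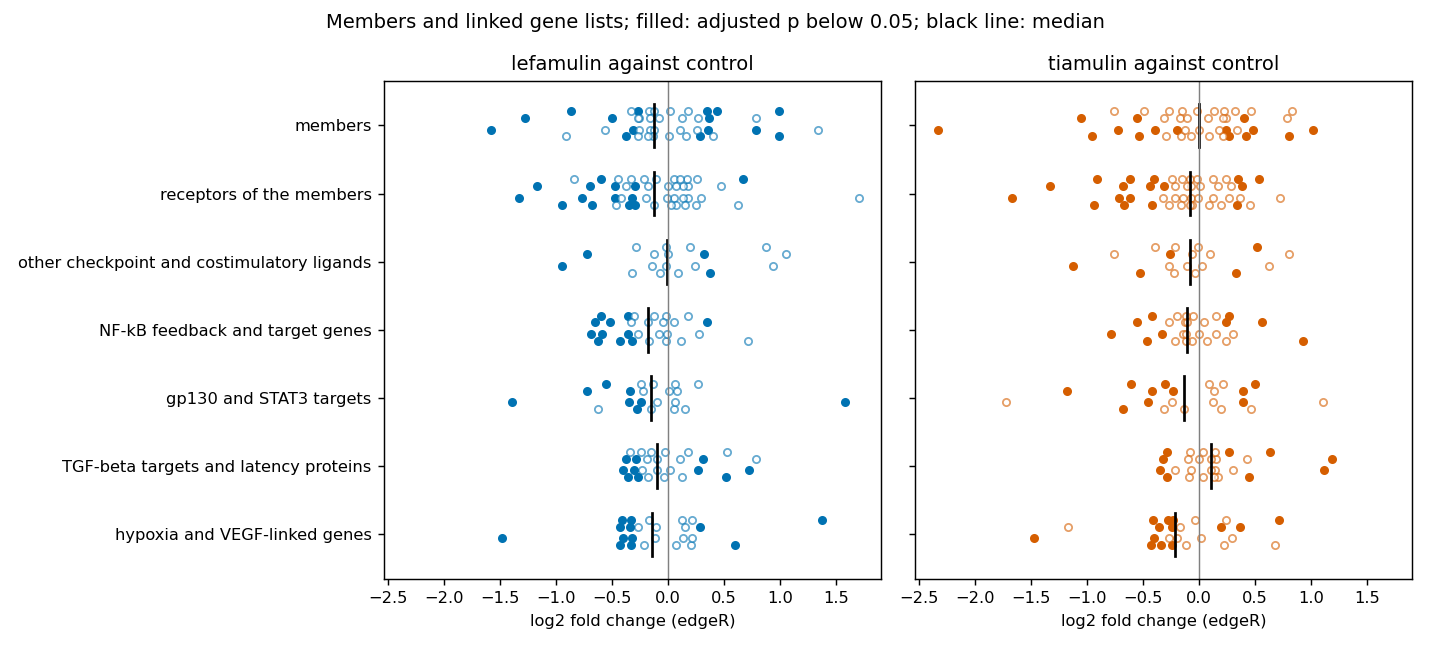
Log2 fold change against control of the 41 tested ligand genes and of the tested genes in 6 linked lists, under lefamulin and under tiamulin, with 1 point per gene, filled where the adjusted p was below 0.05, and a black line at the median. Called receptor genes lie mostly left of 0 under both drugs, and called TGF-beta targets reach beyond 1 only under tiamulin.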

How the data were processed

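RNA-sequencing of Hepa1-6 cells covered 9 libraries in 3 groups of 3. Per the submitters' processing notes, the authors used CASAVA 1.8, fastp, HISAT2 2.0.5, featureCounts 1.5.0-p3 and DESeq2 1.20.0 with the mouse genome mm10. Whether counting used strand is not given in the sources used here. The authors deposited raw read counts per gene and FPKM values, the latter scaled by them to gene length and library size. Only 4 of the 104 genes have their GRCm38 start and end in the deposited table, so those positions are given as deposited and not as mm10.

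The counts were tested with edgeR 4.0.16 in R 4.3.3: low counts were removed with filterByExpr by group, libraries were scaled by TMM (factors 0.9936 to 1.009), and all 9 libraries entered 1 quasi-likelihood fit (robust) with group as the only term. P-values were adjusted by Benjamini-Hochberg over 14510 genes, and a gene passed at an adjusted p below 0.05. The rule that also asks for an absolute log2 fold change above 1 is that of the study. Intervals are at 95% and not adjusted. FPKM was used for levels between genes, and means are given with the SD. CPM are TMM-normalized. The test was tried on simulated data first. The limit for a count of 0 is 3 counts and covers counting error only.

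Alternatives were DESeq2 1.42.0, its size factors in edgeR, other filters on low counts, limma 3.58.1 on log2(FPKM + 1) and log2(FPKM + 0.1), offsets for GC content and length, the replicate number as a block, the 2 groups compared alone, and leaving out each library. Genes described were those past the test in any comparison and the 10 with the highest mean FPKM. A set list of well-known ligands was added (among them Cd274, Pvr, Cxcl10, Ccl2, Ccl5, Il6 and Tgfb1). Of the untested ones with 10 or more counts, the 4 with the highest totals were given by library and the rest as a range of totals. In each linked list the 4 called genes with the largest change were named. A few others were chosen after their values were seen (Il6st, Cxcl9 and Il12b among them). Promoters were shown for genes past the test under both drugs, by smallest adjusted p. The genes, lists and tests were chosen with earlier results of these data known.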

Additional observations from a re-analysis of the deposited data

Results flagged for a closer look

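For 4 genes the effects of the drugs differed from each other by the direct test of tiamulin against lefamulin. The log2 difference, tiamulin minus lefamulin, was 0.73 for Csf1, 0.70 for Ccl20, 0.40 for Ccl2 and -0.60 for Cxcl5. Csf1 fell under lefamulin with no call under tiamulin, Ccl20 rose and Cxcl5 fell under tiamulin with no call under lefamulin, and Ccl2 lay below control under lefamulin and above it, without passing, under tiamulin. With GC and length offsets Cxcl5 also passed as lower under lefamulin (adjusted p = 0.00384). In the same fit Ccl2 and Csf1 passed as higher under tiamulin (adjusted p = 0.00572 and 0.0152). These 4 genes are the macrophage growth factor, the CCR6 ligand, the CCR2 ligand and a CXCR2 ligand. Groups of 3 libraries are too small for an outlier test, so none was made.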

How the results depend on the processing

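The numbers of ligand genes past the test were 15, 15 and 4 for lefamulin against control, tiamulin against control and tiamulin against lefamulin. With the replicate block they were 11, 14 and 4, but the numbers did not pair the libraries: correlations of deviations between same-numbered libraries ran from -0.51 to 0.0434, and 0 of 9 libraries correlated best with their own number. With DESeq2 they were 12, 15 and 6, with DESeq2 size factors in edgeR 15, 15 and 4, with no filter 12, 15 and 6, with at least 10 counts in every library 13, 15 and 4, and with limma on FPKM 12, 15 and 4 at either pseudocount. With offsets for GC content and length they were 18, 19 and 7, and with the replicate block added 18, 18 and 7, while calls over all genes went from 1900, 2383 and 711 to 3459, 3941 and 1912 with the offsets alone. The 2 groups alone gave 19, 13 and 4. Leaving out 1 library gave 10 to 20, 12 to 18 and 2 to 6. The cause of these shifts was not tested. None of the values past the threshold in either fit changed sign over 2245 values compared, and 65 values past it in neither did. Ccl9 was not tested with limma or with at least 10 counts in every library. Spp1 under tiamulin lost its call with GC offsets and the replicate block together (adjusted p = 0.0678), and Csf1 under tiamulin gained one with GC offsets (0.0152). With DESeq2, Csf2, Il11 and Il23a lost the lefamulin call. By number of genes, 45 or 50 of the 104 count as nearly absent, as FPKM below 0.1 in every library or as 10 or fewer counts.

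Over the 19 alternatives, called receptors ranged from 7 to 24 under lefamulin (14 as reported), 9 to 18 under tiamulin (17) and 0 to 10 between the drugs (2), and further checkpoint ligands from 2 to 7 (4), 3 to 7 (5) and 0 to 5 (2). The NF-kB list ranged from 8 to 16 (11), 6 to 13 (9) and 2 to 12 (6), gp130 and STAT3 targets from 1 to 10 (8), 4 to 13 (10) and 3 to 7 (6), TGF-beta targets from 6 to 16 (10), 7 to 14 (9) and 6 to 11 (7), and the hypoxia list from 9 to 16 (12), 7 to 15 (13) and 0 to 5 (1). Depth limits the statements on scarce genes: Tgfb2, Cxcl11, Il17d and Tnfsf13 were among those with the widest intervals.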
